A study of Homo sapiens with 16 samples.

Results

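The 40 min time point of a DRB/GRO-seq series was examined: the 4 averaged profiles of nascent RNA, among 16 in all, in which cells depleted of RECQL5 (KD) are set against cells expressing it (WT). The cells were HEK293T-rex, human embryonic kidney cells with the repressor needed for doxycycline control. DRB, a reversible inhibitor of transcription, was washed out, and nuclei were taken for run-on 40 min later. The members were chosen by time point alone, and KD was compared with WT inside each of the clones 15 and 18, so that each side held 2 clones with 1 library each.

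In all 4 samples the endogenous RECQL5 was knocked down constitutively by an shRNA, and each clone carried an shRNA-resistant RECQL5 gene driven by a doxycycline-inducible promoter. WT cells were kept in doxycycline and therefore expressed the transgene at about the physiological level, while KD cells were grown without doxycycline for 4 days. WT thus means re-expression in a depleted line, not an unmodified cell. The labels name the times as doxycycline treatment, whereas the treatment protocol gives them as minutes after release from DRB, which is the meaning used here. Each profile is a mean over long genes and holds no value of a single gene, so that neither the depletion of RECQL5 nor the identity of the cells could be checked in these profiles.

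RECQL5 is a DNA helicase of the RecQ family that binds RNA polymerase II (RNAPII) directly. DRB blocks the kinase of P-TEFb, which normally lets RNAPII escape from the promoter-proximal pause, so that genes empty downstream while polymerases stay near the transcription start site (TSS). After DRB is removed, a synchronous wave of RNAPII enters the gene bodies, newly initiated polymerases fill the promoter behind it, and run-on sequencing reports where engaged polymerases lie.

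At 40 min the profiles are described in 4 regions: the promoter-proximal first 2 kb after the TSS, a plateau region from about 10 to 40 kb, a long decline, and a low floor beyond about 100 kb. The promoter peak and the slope of the plateau region were not alike in all 4 samples. The unit is the mean normalized read depth, each library having been scaled by the authors to the same total. Library sizes recovered from the values were 24.4 to 36.4 M reads. The largest standard error from counting alone was 0.00314 on the log2 ratio of KD to WT in a 5 kb bin and 0.0157 in a 250 bp bin. Counting error was therefore small beside most differences between the samples. With 1 library per clone on each side, differences between clones cannot be told apart from those between cultures or libraries. Nothing in the sources used here says that the libraries of a clone came from more than 1 culture each, and a p-value measures only the spread between these 4 samples.

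WT of clone 15 stood apart from the other profiles. It was the lowest or the highest of the 4 samples in 22 of 24 bins of 5 kb, being lowest in 15 and highest in 7, whereas the other 3 profiles lay within 3.13% to 11.0% of each other. Averaged over the 24 bins, the absolute log2 ratio was 0.122 between WT and KD of clone 15 and 0.185 between the WT samples of both clones. The same measure was 0.0480 between WT and KD of clone 18 and 0.0626 between KD of clone 15 and WT of clone 18. The main comparisons at 40 min are accordingly given with and without this library. Without it, both KD samples are set against WT of clone 18 alone. A difference between the clones then enters the value, so that it is not a difference within a clone.

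**Figure D1:**
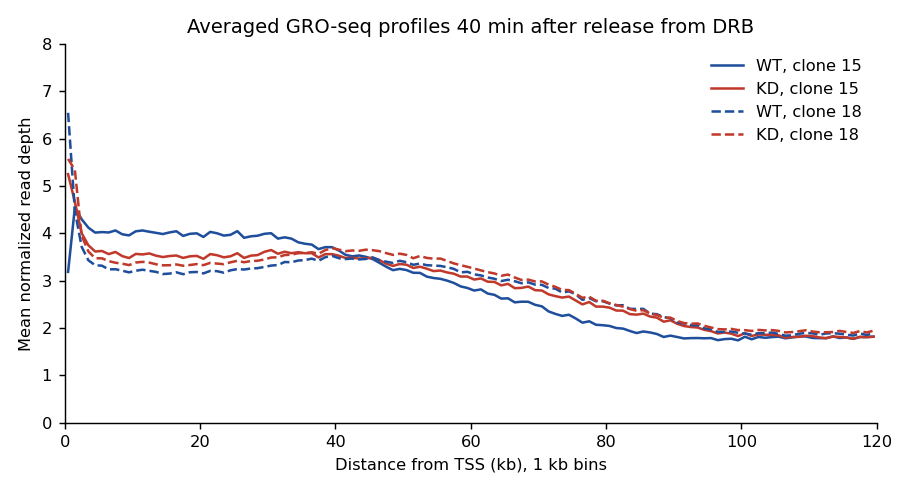
Mean normalized read depth in 1 kb bins from the TSS (x axis, kb) in WT (blue) and KD (red) of clone 15 (solid) and clone 18 (dashed) at 40 min, 1 library per line. The line of WT in clone 15 starts lowest, runs highest from 2 to 40 kb and lowest from 45 to 105 kb, and beyond that lies beside KD of clone 15, while the other 3 lines stay closer together in the gene body.

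In the gene body, depth in KD relative to WT took a different course in each clone. In clone 15 KD was lower from 5 to 45 kb and higher from 45 to 115 kb, with log2 ratios from −0.19 (15 to 20 kb) to 0.25 (80 to 85 kb). In clone 18 KD was higher by 0.06 to 0.08 on the log2 scale in every bin from 5 to 60 kb, and the ratio then shrank to −0.01 at 80 to 90 kb. KD was higher than WT in both clones in 13 of 24 bins (54.2%), lower in both in 0, and of opposite sign in 11. Taken singly, KD was higher in 15 of 24 bins in clone 15 and in 22 of 24 in clone 18. With only 2 lower bins in clone 18, the count of bins lower in both says little about agreement of the clones. The bins with the same sign were 0 to 5 kb, 45 to 80 kb and 90 to 115 kb.

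At 10 to 15 kb, behind the wave, the depth was 4.03 for WT and 3.55 for KD in clone 15, and 3.20 for WT and 3.37 for KD in clone 18. At 40 to 45 kb the 4 samples nearly met, at 3.55 and 3.49 in clone 15 and 3.46 and 3.64 in clone 18. At 60 to 65 kb the depth was 2.73 for WT and 2.99 for KD in clone 15, and 3.07 for WT and 3.18 for KD in clone 18. At 10 to 15 kb WT of clone 15 thus lay above the other 3 samples, at 40 to 45 kb among them, and at 60 to 65 kb below them.

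At 80 to 85 kb, on the lower part of the decline, WT of clone 15 stood at 1.97, with its KD at 2.35, against 2.46 for WT and 2.45 for KD in clone 18. At 115 to 120 kb the values were 1.80 and 1.80 in clone 15 and 1.87 and 1.92 in clone 18. The groups overlapped in every bin: in 0 of 24 (0%) did both KD samples lie above or below both WT samples. At 25 min the same count was 11 of 24 (45.8%), with KD below in 8 and above in 3.

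The count of bins depended on the scale. When each profile was divided by its mean over the whole window, KD was higher in both clones in 4 bins, lower in both in 3 and of opposite sign in 17. Divided by its depth at 110 to 120 kb, it was higher in both in 8 and opposite in 16. On that scale KD lay above WT without overlap in 6 bins between 45 and 105 kb. Without WT of clone 15, KD of both clones lay above WT of clone 18 in 8 bins and below it in 2.

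**Figure D2:**
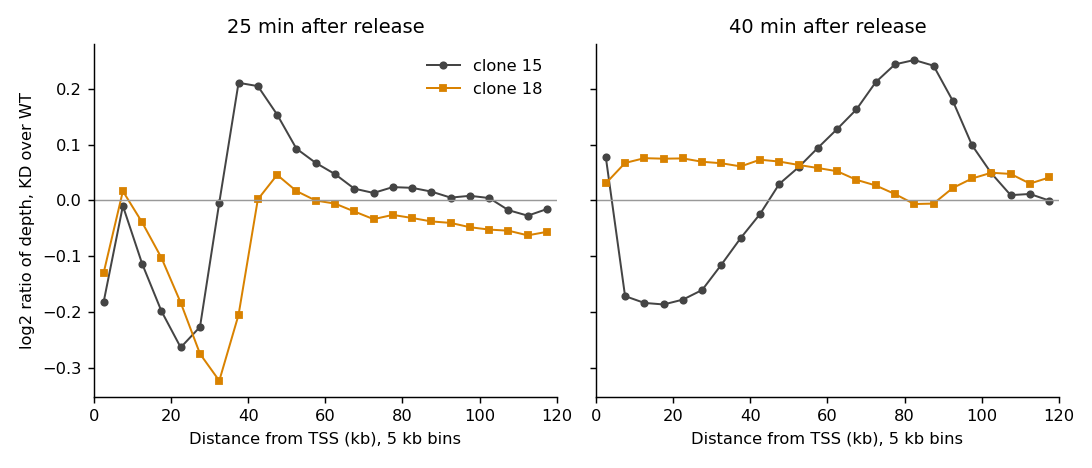
log2 ratio of depth, KD over WT, in 5 kb bins from the TSS (x axis, kb) for clone 15 (circles) and clone 18 (squares) at 25 min (left) and 40 min (right). At 40 min clone 15 runs from −0.19 to 0.25 while clone 18 stays between −0.01 and 0.08.

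Depth over the first 1 kb, taken as the measure of promoter refill, went opposite ways in the clones. It was 3.19 for WT and 5.25 for KD in clone 15, so that KD was higher by 64.8%. In clone 18 it was 6.55 for WT and 5.57 for KD, so that KD was lower by 14.9%. The KD samples lay between the WT samples. In these averages, fewer active genes and fewer polymerases per gene cannot be told apart. Nor can newly initiated polymerases be told apart from those left from the DRB block. Log2 ratios of 0.72 (clone 15) and −0.23 (clone 18) gave a mean of 0.24 ± 0.67 (SD, n = 2 clones; exact permutation test, two-sided, p = 1). For 2 samples against 2 the smallest p is 0.33. For each of the 10 measures tested in this way at 40 min the p adjusted by Benjamini-Hochberg was 1. Without WT of clone 15, that is, with both KD samples set against WT of clone 18, the mean log2 difference was −0.28.

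Relative to the plateau, the promoter held least signal in WT of clone 15. The ratio of depth over the first 1 kb to depth over 10 to 30 kb, which does not depend on scaling, was 0.798 for WT and 1.49 for KD in clone 15. In clone 18 it was 2.04 for WT and 1.65 for KD. Only in WT of clone 15 did the promoter lie below the gene body. The log2 differences were 0.90 and −0.31, with a mean of 0.30 ± 0.85 (SD, n = 2 clones; exact permutation test, two-sided, p = 1), and −0.38 without WT of clone 15.

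The promoter peak, the maximum of a 50 bp running mean in the first 2 kb, also differed in height and place. For clone 15 it reached 4.65 in WT, at 1198 bp, and 6.01 in KD, at 610 bp. For clone 18 it reached 8.58 in WT, at 280 bp, and 7.81 in KD, at 824 bp. Thus KD had the taller peak and the one nearer to the TSS in clone 15, and the lower and more distant one in clone 18. The log2 ratio of heights was 0.37 and −0.14, with a mean of 0.12 ± 0.36 (SD, n = 2 clones; exact permutation test, two-sided, p = 1). Without WT of clone 15 it was −0.33.

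The 2 kb before the TSS, where divergent transcription from the promoter is also counted unless strand is used, had the same sign in both clones. The mean depth there was 1.71 for WT and 2.63 for KD in clone 15, and 3.37 for WT and 3.51 for KD in clone 18. The log2 ratio was 0.62 in clone 15 and 0.06 in clone 18, with a mean of 0.34 ± 0.40 (SD, n = 2 clones; exact permutation test, two-sided, p = 0.667). Lowest of the samples was WT of clone 15, and without it the mean was −0.15, although KD minus WT within clone 18 was 0.06. The upstream maximum was 1.92 for WT and 3.85 for KD in clone 15, at −960 and −452 bp. In clone 18 it was 5.78 for WT and 5.12 for KD, at −389 and −588 bp. An upstream peak was thus almost missing from WT of clone 15.

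**Figure D3:**
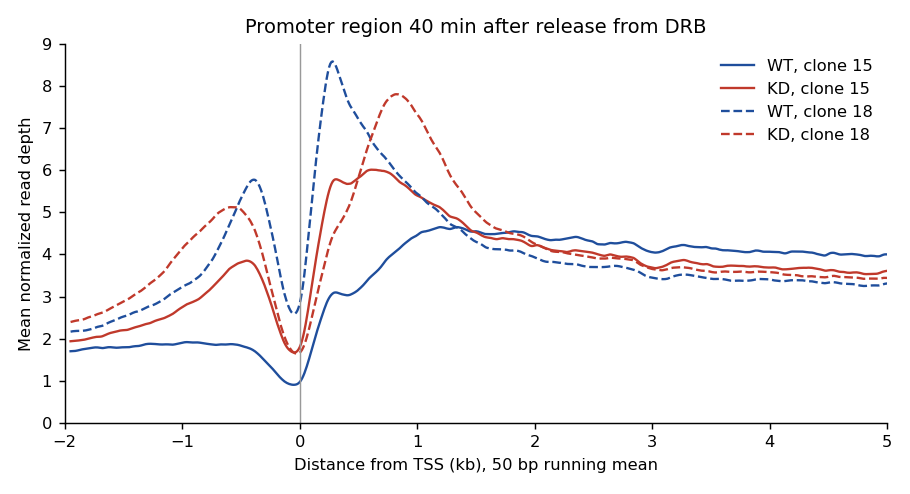
Mean normalized read depth (50 bp running mean) from 2 kb before to 5 kb after the TSS (x axis, kb; grey line at the TSS) in WT (blue) and KD (red) of clone 15 (solid) and clone 18 (dashed) at 40 min. Both promoter peaks are nearly missing in WT of clone 15, and the main peak of WT in clone 18 lies nearer to the TSS (280 bp) than that of KD (824 bp).

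In finer bins the clones had the same sign in a stretch on each side of the TSS. Among 28 bins of 250 bp from −2 to 5 kb, KD was higher in 14 in clone 15 and in 24 in clone 18. It was higher in both clones in 10 (35.7%), lower in both in 0 and opposite in 18. The 10 were the 6 bins from −2 to −0.5 kb and the 4 from 0.5 to 1.5 kb. Nearest to the TSS, from −0.5 to 0.5 kb, KD was higher in clone 15 and lower in clone 18. Beyond 1.5 kb the signs were the other way round. Without WT of clone 15, both KD samples lay above WT of clone 18 in 16 of the bins, all from 1 to 5 kb, and below it in 4.

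The groups did not overlap in 2 of the 28 bins (7.14%), against 26 of 28 (92.9%) at 25 min, when KD was below in 14 and above in 12. At 1 to 1.25 kb the depth at 40 min was 4.59 for WT and 5.21 for KD in clone 15, and 5.14 for WT and 6.72 for KD in clone 18. At 1.25 to 1.5 kb it was 4.60 and 4.75 in clone 15, and 4.55 and 5.49 in clone 18. In both bins every KD sample was above every WT sample. The gap from the higher WT to the lower KD sample was small beside the difference between the KD samples.

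The split of the first 1 kb showed where clone 18 differed. Over the first 500 bp the depth was 2.51 for WT and 4.68 for KD in clone 15, and 6.85 for WT and 3.87 for KD in clone 18. From 0.5 to 1 kb it was 3.86 and 5.82 in clone 15, and 6.24 and 7.27 in clone 18. Within the first 1 kb, KD of clone 18 was therefore lower than WT in the part close to the TSS and higher in the part beyond. From 2 to 5 kb, the values were 4.15 and 3.79 in clone 15 and 3.49 and 3.68 in clone 18, already in the order of the plateau.

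Followed through time, promoter depth was lower at 40 than at 25 min in both WT series and nearly the same in both KD series. Taken at 0, 10, 25 and 40 min, the first 1 kb of WT in clone 15 held 31.3, 27.4, 8.63 and 3.19. In WT of clone 18 it held 25.9, 29.0, 7.99 and 6.55, and in KD of clone 18 it held 17.7, 20.3, 5.38 and 5.57. KD of clone 15 began without the promoter signal of the other series, with 3.49 at 0 min and 4.48 at 10 min, and then held 5.41 and 5.25.

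The depth at 40 min was 36.9% (clone 15) and 81.9% (clone 18) of that at 25 min in WT, and 97.0% (clone 15) and 104% (clone 18) in KD. At 25 min KD lay below WT in both clones, with log2 ratios of −0.67 and −0.57. At 40 min the ratio was thus higher than at 25 min by 1.39 in clone 15 and by 0.34 in clone 18, with a mean of 0.87 ± 0.74 (SD, n = 2 clones; exact permutation test, two-sided, p = 0.333; adjusted over 6 measures by Benjamini-Hochberg 0.667). Both values stayed positive when profiles were divided by their mean over the whole window (1.32 and 0.20) or by their depth at 110 to 120 kb (1.37 and 0.24). Upstream of the TSS the ratio was higher by 1.21 and 0.35 (exact permutation test, two-sided, p = 0.333; adjusted 0.667). The size in clone 15 rested on WT of clone 15. Without that series, the mean change was 0.29 over the first 1 kb and 0.30 upstream. On the deposited scale the rise was not confined to the promoter, but outside the promoter it depended on the scale. Of 24 bins of 5 kb, the ratio rose in both clones in 17 (opposite in 7). Bins rising and falling in both were 2 and 10 on the whole-window scale, and 4 and 5 on the 110 to 120 kb scale. Over the plateau from 10 to 30 kb the ratio rose by 0.02 in clone 15 and 0.21 in clone 18. For promoter over plateau it rose by 1.37 and 0.13 (exact permutation test, two-sided, p = 0.667).

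**Figure D4:**
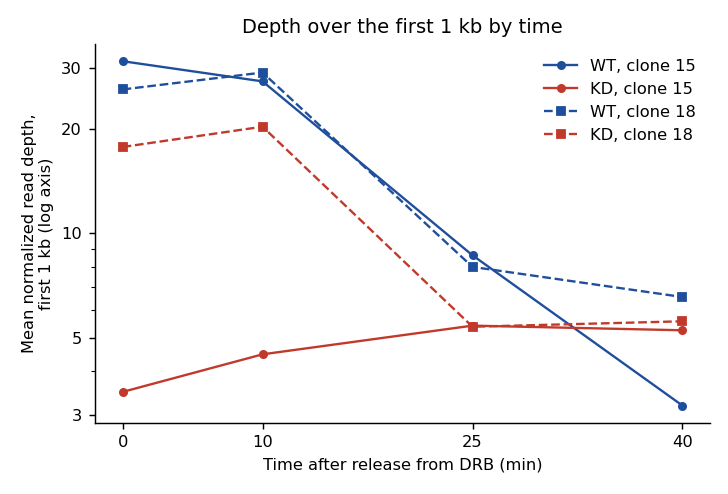
Mean normalized read depth over the first 1 kb (y axis, logarithmic) against minutes after release from DRB, in WT (blue) and KD (red) of clone 15 (circles, solid) and clone 18 (squares, dashed), 1 library per point. Between 25 and 40 min both WT lines go down, to 36.9% and 81.9%, while the KD lines stay at 97.0% and 104%.

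The plateau was level or rising in 3 of the samples and falling in WT of clone 15. Its mean depth from 10 to 30 kb was 3.99 for WT and 3.53 for KD in clone 15, and 3.20 for WT and 3.37 for KD in clone 18. A line through 1 kb bins from 10 to 40 kb had a slope, in percent of the mean depth per 10 kb, of −2.67 for WT and 0.52 for KD in clone 15. In clone 18 it was 3.56 for WT and 3.15 for KD. KD minus WT was 3.19 in clone 15 and −0.42 in clone 18, a mean of 1.39 ± 2.55 (SD, n = 2 clones; exact permutation test, two-sided, p = 1), and −1.73 without WT of clone 15.

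The inner and outer parts of the plateau had different slopes. From 10 to 25 kb the slope was −1.36 for WT and −0.90 for KD in clone 15, and −0.17 for WT and −0.21 for KD in clone 18. From 25 to 40 kb it was −6.16 for WT and 0.15 for KD in clone 15, and 6.20 for WT and 5.63 for KD in clone 18. There KD minus WT was −3.31 without WT of clone 15, but −0.57 within clone 18. In clone 18 both profiles rose to a hump at about 40.5 kb, which stood 10.4% for WT and 9.76% for KD above the lowest point of the plateau. In clone 15 the highest 5 kb running mean between 20 and 60 kb lay at 23.3 kb for WT and 31.6 kb for KD and stood 1.28% and 3.0% above that point. The hump was thus present in both KD and WT of clone 18.

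The decline of the wave was measured as height, in percent of the way from the floor (the lowest 5 kb running mean beyond 5 kb) to the plateau. The profile had fallen to 50% at 58.8 kb for WT and 73.3 kb for KD in clone 15, and at 80.2 kb for WT and 77.3 kb for KD in clone 18. The KD samples lay between the WT samples. KD minus WT was 14.5 kb in clone 15 and −2.88 kb in clone 18, a mean of 5.81 ± 12.3 kb (SD, n = 2 clones; exact permutation test, two-sided, p = 1), and −4.87 kb without WT of clone 15.

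The displacement had 1 sign within each clone at every height measured. Over 9 heights from 90% to 10%, KD minus WT in clone 15 was 12.1 to 14.7 kb, with a mean of 13.6 and an SD over heights of 0.861 kb. In clone 18 it was −3.26 to −0.63 kb, with a mean of −2.06 and an SD over heights of 0.858 kb. Without WT of clone 15, the mean of both KD samples lay −7.80 to −0.51 kb from WT of clone 18. The heights of 1 profile are not independent. The 10% height was reached at 82.1 kb in WT of clone 15, while the other samples reached it at 94.0 to 94.6 kb.

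The spread of the edge, the distance between the 75% and 25% positions, differed more between clones than between KD and WT. It was 27.2 kb for WT and 28.1 kb for KD in clone 15, and 18.1 kb for WT and 18.8 kb for KD in clone 18. Clone 15 was wider than clone 18 by 9.08 kb in WT and by 9.29 kb in KD. KD minus WT was 0.891 kb in clone 15 and 0.678 kb in clone 18, a mean of 0.785 ± 0.151 kb (SD, n = 2 clones; exact permutation test, two-sided, p = 0.667). Without WT of clone 15 it was 5.33 kb, since KD of clone 15 was then set against clone 18 alone. Measured from 60% to 40%, the edge was narrower in KD of both clones, by −1.11 and −1.22 kb, so the direction depended on the heights chosen. From 50% to 10% the clones had opposite signs, −2.42 kb in clone 15 and 2.25 kb in clone 18.

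**Figure D5:**
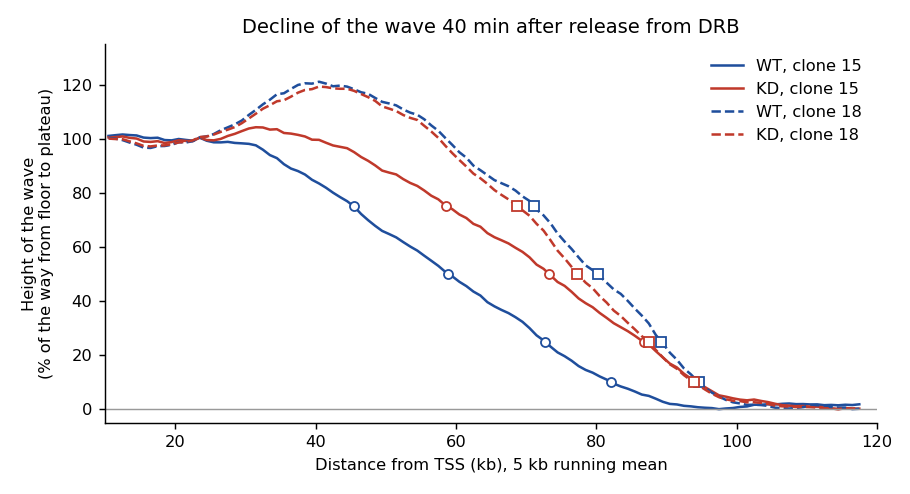
Height of the wave (y axis, percent of the way from floor to plateau, 5 kb running mean) against distance from the TSS (x axis, kb) in WT (blue) and KD (red) of clone 15 (solid) and clone 18 (dashed) at 40 min, with open symbols at 75, 50, 25 and 10%. In clone 15 KD lies 12.1 to 14.7 kb beyond WT at every height, and in clone 18 KD lies 0.63 to 3.26 kb short of WT.

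As a share of plateau height, the decline was also steeper in clone 18 than in clone 15. In depth this order was not kept. The steepest step between adjacent 10 kb bins was −0.420 for WT and −0.324 for KD in clone 15, and −0.376 for WT and −0.393 for KD in clone 18. KD minus WT for that step in depth was 0.095 in clone 15 and −0.017 in clone 18. A line from 40 to 100 kb had a slope, in percent of plateau height per 10 kb, of −15.4 for WT and −17.3 for KD in clone 15, and of −21.9 for WT and −22.4 for KD in clone 18. KD minus WT was −1.87 and −0.53, a mean of −1.20 ± 0.95 (SD, n = 2 clones; exact permutation test, two-sided, p = 0.667). Leaving out WT of clone 15 turned the mean to 2.04, because KD of clone 15 was then set against clone 18, whereas the pair of clone 18 alone gave −0.53. Divided by the share of genes still running, the clones had opposite signs, 0.34 and −1.52. Between adjacent 10 kb bins the steepest step was −18.8% of height for WT and −18.7% for KD in clone 15, and −28.1% for WT and −27.0% for KD in clone 18. It lay across 70 kb for WT and 90 kb for KD in clone 15, and across 90 kb for WT and 80 kb for KD in clone 18. In clone 15 its place was poorly resolved. The steps of KD across 70, 80 and 90 kb were −18.5, −18.6 and −18.7%, and those of WT across 60 and 70 kb were −17.9 and −18.8%.

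The share of the wave beyond 40 kb, counted as depth above the floor from 40 to 100 kb in percent of that from 0 to 100 kb, was 33.8% for WT and 43.3% for KD in clone 15. In clone 18 it was 48.0% for WT and 47.1% for KD. KD minus WT was 9.55 percentage points in clone 15 and −0.85 in clone 18, a mean of 4.35 ± 7.35 (SD, n = 2 clones; exact permutation test, two-sided, p = 1), and −2.76 without WT of clone 15. Beyond 60 kb the shares were 11.5% and 19.8% in clone 15 and 22.5% and 21.1% in clone 18. The low share was again that of WT of clone 15, and without it KD minus WT was −2.02 percentage points.

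Beyond the wave, at 110 to 120 kb, the depth was 1.80 for WT and 1.81 for KD in clone 15, and 1.87 for WT and 1.92 for KD in clone 18. Log2 ratios of 0.01 (clone 15) and 0.04 (clone 18) had a mean of 0.02 ± 0.02 (SD, n = 2 clones; exact permutation test, two-sided, p = 0.667), and the sign of the mean turned without WT of clone 15. Fewer genes reach these distances: of the protein-coding genes annotated in GENCODE release 44 with transcripts of 30 kb or more, 83.5% were still running at 40 kb, 60.2% at 60 kb, 46.9% at 80 kb and 30.3% at 120 kb. The decline of each profile therefore includes the ends of genes. The same long genes entered the average in each sample, before trimming at each base pair. The GENCODE genes counted here are not the study's own gene set.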

How the data were processed

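Per the labels and the study's methods, the authors aligned reads to hg19 with BWA 0.5.9 after CASAVA 1.8.2, extended them to 250 bp, scaled each library to the same total and took a trimmed mean (0.01) over long genes at each base pair. The deposited signal is this mean normalized read depth (coverage) from 2 kb before to 120 kb after the TSS. The Ensembl release and the strand counted are not given in the sources used here. Equal scaling means that reads from other sources lower a whole profile. Library sizes were recovered from the steps of the deposited values, and intervals from them cover counting error only.

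Mean depth was taken in fixed bins of 250 bp, 5 kb and 10 kb, and the shape measures are defined in the text. Position by height was read from a 5 kb running mean that stayed below the level for 1 kb, searched from 10 kb. KD and WT were compared by exact permutation tests over the 4 samples. The code for 50% height, edge spread, plateau slope and share beyond 40 kb was tested on simulated data, and the other measures were not. The members and measures were chosen with earlier results of these data known, and no gene is named because the profiles hold none.

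The samples pair by clone, since the same number marks the same cell line in the labels. Across 120 bins of 1 kb at 40 min, deviations from the group means in KD and WT of the same clone had a correlation of 0.762 (−0.143 at 25 min). With 2 clones and adjacent bins that are not replicates, this correlation cannot test the pairing. Alternatives were the clone as a block, leaving out each clone, other scalings, windows, heights, plateaus, floors and bins, subtraction of the 0 min profile, division by the share of genes still running (GENCODE release 44) and, chosen after seeing the data, leaving out WT of clone 15. Python 3.11.15, numpy 2.4.6, pandas 2.3.3 and matplotlib 3.10.9 were used.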

Additional observations from a re-analysis of the deposited data

Results flagged for a closer look

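For several measures at 40 min the difference between KD and WT had opposite signs in the clones. Clone 15 minus clone 18 was 0.95 for the log2 ratio of promoter depth over the first 1 kb, 0.51 for the log2 ratio of peak height and 1.20 for the log2 ratio of promoter to plateau. It was 3.61% of mean depth per 10 kb for the plateau slope, 17.4 kb for the position of 50% height and 10.4 percentage points for the share of the wave beyond 40 kb. The signs were also opposite in 11 of 24 bins of 5 kb. The opposite signs were lost for the slope taken from 5 to 30 kb (0.39 and 0.037). They were also lost for peak height with the 0 min profile subtracted (0.41 in clone 15 and 0.27 in clone 18, log2). At 0 min the first 1 kb held 31.3 and 25.9 in WT of clones 15 and 18 and 17.7 in KD of clone 18, more than at 40 min. It held only 3.49 in KD of clone 15. The maximum left after subtraction therefore need not be the promoter peak, and the samples are not alike in it. Each clone gave a single pair of libraries, so the contrast between the clones was not tested. WT of clone 15 was the lowest of the 4 samples in each of these 6 measures.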

How the results depend on the processing

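With 2 clones a side no test could pass a threshold of 0.05, so only directions and sizes can change. With the clone as a replicate block, every mean difference kept its value, including 0.24 for promoter depth and 0.785 kb for the edge spread (exact sign-flip permutation test, smallest p 0.5). Leaving out a clone, or WT of clone 15 alone, gave −0.28 to 0.72 for promoter depth, −0.33 to 0.37 for peak height, −0.38 to 0.90 for promoter to plateau, −0.15 to 0.62 for upstream depth and −0.00882 to 0.0355 for depth at 110 to 120 kb (all log2). It gave −1.73 to 3.19 for plateau slope, −4.87 to 14.5 kb for 50% height, 0.678 to 5.33 kb for edge spread, −1.87 to 2.04 for decline and −2.76 to 9.55 percentage points for the share beyond 40 kb. KD was then higher in 8 to 22 bins and lower in 2 to 9.

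With the 0 min profile subtracted, the plateau slope difference turned to −0.59 and the share beyond 40 kb to −2.58 percentage points (0.04 in clone 15 and −5.20 in clone 18). That setting gave no value for promoter depth, promoter to plateau or upstream depth, because the subtracted depth was below 0 in WT of both clones and in KD of clone 18. Depths below 0 in the first 1 kb also enter the total behind the share. With 0 min subtracted, the share is therefore not comparable between the samples. The edge spread turned to −1.17 kb from 60 to 40%, −0.086 kb from 50 to 10% and −1.25 kb per gene still running. In the latter setting the clones had opposite signs for edge spread (−5.25 kb in clone 15 and 2.75 kb in clone 18), as they had with 0 min subtracted (4.09 and −2.26 kb). Scaled to the whole window, the log2 ratio at 110 to 120 kb turned to −0.0112. Bins higher, lower and opposite were 4, 3 and 17 on that scale and also with 0 min subtracted. Scaled to 110 to 120 kb 8 were higher, and of the 10 kb bins 7 were higher and 5 opposite. The cause of these changes was not tested. The other alternatives kept the sign of the mean.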
